A study of Mus musculus with 4 samples.

Results

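RNA of mouse spermatozoa was examined for 6 immediate early genes outside the AP-1 family: Egr1, Nr4a1, Ier2, Ier5, Dusp1 and Btg2. They were matched by Ensembl identifier and symbol, were found in all 4 deposited tables, and are 6 of the 8699 genes listed there. They were selected on their read numbers, because several were already known to have fewer reads in the nicotine libraries. Their nicotine and saline values are therefore a description. Calls on them from the fit over all genes are printed beside the share of all genes called and are no independent evidence. Both groups were adult C57BL/6J males (an inbred strain) of about 11 weeks. The first group had been given nicotine (2 libraries) and the second saline (2 libraries). The labels name no allele, and the sources used here do not give dose, route or length of exposure. Sperm were pressed into culture medium from the cauda, where the epididymal duct stores them, and RNA was taken with Trizol. The labels describe no purification from other cells and do not say that the libraries came from separate animals, so p-values rest on a spread between samples that may be technical.

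Immediate early genes are those that a cell transcribes within minutes of a stimulus, without first making new protein. Growth factors, calcium or stress act through MAP kinases and cyclic AMP on factors already bound to DNA, chiefly SRF and CREB, and the messages are short-lived. Some products, such as EGR1 and NR4A1, are transcription factors that pass the signal on. Others, such as DUSP1 and BTG2, dampen it. Mature sperm are held to be transcriptionally silent and to carry RNA made by earlier germ cells.

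RefSeq promoter sequences (build GRCm38.p6) were matched by symbol for 4 of the 6 genes. They are shown because letters known as CREB sites were found in several of them. The shared direction of the 6 genes reflects how they were chosen and says nothing about these sites. Each line gives the 250 bases before the annotated start, 5′ to 3′ on the strand of the gene. Capitals mark the CRE core TGACG, on either strand. Overlapping cores form the full CRE palindrome TGACGTCA.
Nr4a1: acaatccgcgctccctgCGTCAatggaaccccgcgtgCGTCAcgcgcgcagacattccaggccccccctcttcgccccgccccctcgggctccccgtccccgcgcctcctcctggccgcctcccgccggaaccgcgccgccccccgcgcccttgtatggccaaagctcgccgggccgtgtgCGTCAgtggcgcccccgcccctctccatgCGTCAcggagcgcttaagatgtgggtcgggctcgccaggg
Dusp1: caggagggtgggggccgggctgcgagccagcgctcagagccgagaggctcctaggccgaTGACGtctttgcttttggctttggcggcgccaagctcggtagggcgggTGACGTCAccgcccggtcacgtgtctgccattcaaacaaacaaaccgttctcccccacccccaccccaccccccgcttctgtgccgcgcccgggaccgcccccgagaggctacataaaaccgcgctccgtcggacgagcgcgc
Btg2: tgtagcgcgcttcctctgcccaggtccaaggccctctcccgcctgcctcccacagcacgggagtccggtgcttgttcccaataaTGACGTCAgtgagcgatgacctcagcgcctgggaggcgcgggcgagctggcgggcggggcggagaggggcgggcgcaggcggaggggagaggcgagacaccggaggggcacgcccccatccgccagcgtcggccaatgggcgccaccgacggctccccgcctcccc
Ier5: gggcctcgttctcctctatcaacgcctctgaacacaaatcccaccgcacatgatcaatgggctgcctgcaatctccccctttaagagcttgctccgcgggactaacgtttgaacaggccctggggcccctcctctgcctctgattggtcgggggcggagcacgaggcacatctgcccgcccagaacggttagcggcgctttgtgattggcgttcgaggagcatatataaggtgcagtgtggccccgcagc
These windows lie at chr15:101266596-101266845, strand plus for Nr4a1, at chr17:26508473-26508722, strand minus for Dusp1, at chr1:134079156-134079405, strand minus for Btg2 and at chr1:155099637-155099886, strand minus for Ier5. Counting back from the start, the Btg2 window held the palindrome at positions -166 to -159 and the Dusp1 window held it at -143 to -136. Dusp1 had a further core at -191 to -187. Nr4a1 had 4 cores and no palindrome, the nearest at -40 to -36. The Ier5 window had neither. No window held an exact match to the CArG box, the SRF site, or to the TATA box TATAAA, searched on both strands. Variants of these were not searched for, such as TATATAAG in the Ier5 window and CCTTGTATGG in the Nr4a1 window. Over all 32851 promoter windows of this length in the table, 17.8% held a core, 1.55% the palindrome, 1.47% a CArG box and 12.4% TATAAA. The windows of Nr4a1, Btg2 and Dusp1 had 74.4%, 73.2% and 68.4% G and C, and that of Ier5 60.0%. The median over all promoters was 52.4%, and the shares above are not matched for this. Such matches are letters in a window and were not tied to any reading of the sperm RNA.

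Library depth sets how firmly the genes can be read. Totals of reads on listed genes lay between 3798794 and 5216745, but most fell on a pair of genes, Lars2 and Gm42418. Reads outside that pair numbered 358477 and 1176304 in nicotine replicates 1 and 2, against 1002360 and 931578 in saline replicates 1 and 2. Nicotine replicate 1 stood apart, with a median of 8 reads per gene, while the other libraries had 37 to 44. Levels are given as CPM, reads divided by the size of the library, which was adjusted by TMM, a scaling that holds the bulk of genes level. A floor of 3 reads equals 2.43 CPM in nicotine replicate 1 and 0.517 CPM in nicotine replicate 2, against 0.447 and 0.473 CPM in the saline libraries. Counting intervals and floors cover counting error only. Fold changes come from edgeR's quasi-likelihood fit over 8375 genes, as log2 of nicotine over saline ± standard error, and the median gene lay at -0.14 rather than at 0.

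All 6 genes had fewer reads in both nicotine libraries. Their reads summed to 16 and 83 in nicotine replicates 1 and 2, against 711 and 360 in saline replicates 1 and 2. In CPM both nicotine libraries lay below both saline libraries for 6 of 6 genes, an arrangement that 31.0% of all tested genes showed. The fold changes ran from -2.77 for Nr4a1 to -2.31 for Dusp1, with a median of -2.44. At an adjusted p under 0.05 the fit called 2 of the 6 lower (Egr1 and Dusp1), and it called 0.931% of all tested genes lower. Since this contrast chose the genes, nothing is read from that count. It was 5 of 6 with either nicotine library left out, where 3.29% (without replicate 1) and 9.67% (without replicate 2) of all genes were called lower. It was 0 of 6 by edgeR without saline replicate 1 or without saline replicate 2, where 0.303% and 0.104% were. With all libraries DESeq2 called 3 of the 6 (0.943% of all genes were lower) and limma-voom 2 (0.549%). With a minimum count of 30 edgeR called 3 of the 4 that were then tested (1.83% of all). With libraries scaled by total reads it called 0 of the 6 (0.107% of all), and by reads outside Lars2 and Gm42418 also 0 of 6 (0% of all). In bulk RNA, fewer cells that carry a message and less of it per cell cannot be told apart.

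**Figure D1:**
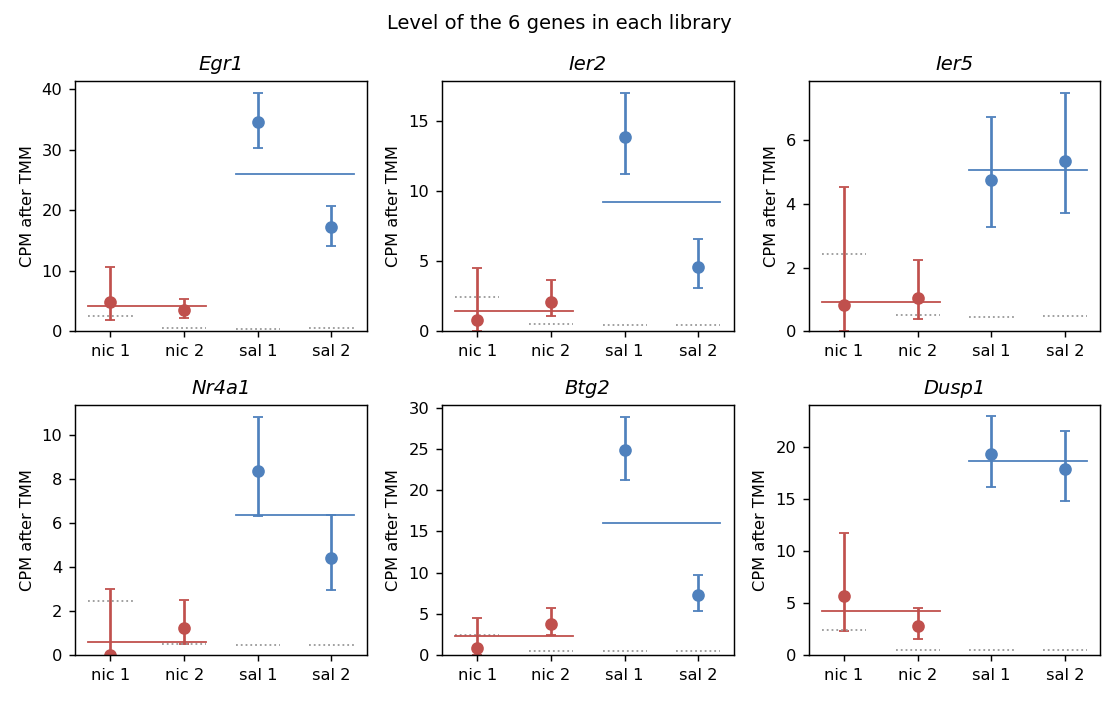
Level of each gene in CPM after TMM (y axis, from 0, own scale per gene) in nicotine replicates 1 and 2 (red) and saline replicates 1 and 2 (blue); points are libraries, bars exact 95% Poisson counting intervals, solid lines group means and dotted lines the level of 3 reads. The nicotine points lie below the saline points for all 6 genes, and the saline points of Egr1, Ier2, Nr4a1 and Btg2 lie apart from each other.

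Egr1 (ENSMUSG00000038418), a zinc finger transcription factor of growth and stress responses, had the most reads of the 6 summed over both saline libraries, though Dusp1 had more in saline replicate 2. It had 6 and 20 reads in nicotine replicates 1 and 2, against 233 and 109 in saline replicates 1 and 2. In CPM that was 4.87 and 3.45 with nicotine and 34.7 and 17.2 with saline, so the groups did not overlap and the nicotine libraries lay close together. The means were 4.16 ± 1.00 CPM with nicotine and 25.9 ± 12.4 CPM with saline (SD, n = 2 each). The log2 fold change was -2.71 ± 0.59, and it was -2.88 without nicotine replicate 1 and -2.12 without saline replicate 1.

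Nr4a1 (ENSMUSG00000023034), an orphan nuclear receptor also called Nur77, had 0 and 7 reads in nicotine replicates 1 and 2, against 56 and 28 in saline replicates 1 and 2. This corresponds to 0 and 1.21 CPM with nicotine, and 8.34 and 4.41 CPM with saline. The 0 in nicotine replicate 1 stands for a level of up to 2.43 CPM, which is still below both saline values. Against that floor the gene was at least 2.64-fold lower in nicotine replicate 1 than over the saline libraries. The fold change from all libraries was -2.77 ± 0.83, and it was -2.36 without nicotine replicate 1.

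Ier2 (ENSMUSG00000053560) encodes a nuclear protein induced by growth factors. It had 1 and 12 reads in nicotine replicates 1 and 2, against 93 and 29 in saline replicates 1 and 2, or 0.812 and 2.07 CPM against 13.8 and 4.57 CPM. Saline replicate 1 stood well above the other 3 libraries. The log2 fold change of -2.41 ± 0.76 was -1.47 without that library and -2.12 without nicotine replicate 1. Without nicotine replicate 2 a single read was left, and saline over nicotine gave a ratio of 11.5 with a 95% counting interval of 2.03 to 458.

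Ier5 (ENSMUSG00000056708), known to act with the heat shock factor HSF1, had the fewest reads of the 6 summed over both saline libraries, though not in saline replicate 2 alone. It had 1 and 6 reads in nicotine replicates 1 and 2, against 32 and 34 in saline replicates 1 and 2. Its levels of 0.812 and 1.03 CPM with nicotine and of 4.76 and 5.36 CPM with saline differed little within each group. The log2 fold change was -2.34 ± 0.71, and it lay between -2.53 and -2.25 with any 1 library left out.

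Dusp1 (ENSMUSG00000024190), also called MKP-1, is the phosphatase that switches off the MAP kinases p38, JNK and ERK. It had 7 and 16 reads in nicotine replicates 1 and 2, against 130 and 114 in saline replicates 1 and 2. Levels were 5.68 and 2.76 CPM with nicotine, and 19.4 and 17.96 CPM with saline, where the libraries nearly coincided. The log2 fold change was -2.31 ± 0.56, at -2.73 without nicotine replicate 1 and -1.64 without nicotine replicate 2. In the GENCODE M21 annotation an exon of Dusp1 overlaps one of Ergic1 on the opposite strand, and the strand setting of the counting was not given, so reads there cannot be assigned with certainty. Ergic1, a protein of vesicle traffic, had 9 and 82 reads in nicotine replicates 1 and 2, against 77 and 83 in saline replicates 1 and 2. Its log2 fold change of -0.12 ± 0.50 did not pass the test (adjusted p = 0.915, edgeR).

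Btg2 (ENSMUSG00000020423), an antiproliferative protein that brings the CCR4-NOT deadenylase to messages, differed most between the saline libraries. It had 1 and 22 reads in nicotine replicates 1 and 2, against 167 and 46 in saline replicates 1 and 2. That is 0.812 and 3.79 CPM with nicotine, and 24.9 and 7.25 CPM with saline. The groups did not overlap, but nicotine replicate 2 was nearer to saline replicate 2 than the saline libraries were to each other. The log2 fold change of -2.48 ± 0.75 was -1.43 without saline replicate 1, -3.18 without saline replicate 2 and -2.05 without nicotine replicate 1. Without nicotine replicate 2 a single read was left, and saline over nicotine then gave a ratio of 20.1 with a 95% counting interval of 3.57 to 797.

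The saline libraries did not carry the 6 genes in one proportion. Between the saline libraries, replicate 1 over replicate 2 in CPM, the ratio was 3.43 for Btg2 (exact 95% counting interval 2.46 to 4.87) and 3.03 for Ier2 (1.98 to 4.77). For Egr1 it was 2.02 (1.60 to 2.56) and for Nr4a1 1.89 (1.18 to 3.09). For Dusp1 it was 1.08 (0.832 to 1.40) and for Ier5 0.890 (0.531 to 1.49), so these 2 genes did not differ between the saline libraries beyond counting error. The intervals of Btg2 and Ier2 do not meet those of Dusp1 and Ier5. Between the nicotine libraries every interval included 1, and at these depths no difference was detectable. For Dusp1 that ratio was 2.06 (0.716 to 5.29), and for Btg2 0.214 (0.00518 to 1.32).

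Within 1 library, the share of each gene in the summed reads of the 6 does not depend on how libraries are scaled. Egr1 held 37.5% in nicotine replicate 1 (exact 95% interval 15.2 to 64.6%) and 24.1% in nicotine replicate 2 (15.4 to 34.7%), against 32.8% and 30.3% in saline replicates 1 and 2. Dusp1 held 43.8% (19.8 to 70.1%) and 19.3% (11.4 to 29.4%) in the nicotine libraries, and Btg2 6.25% (0.158 to 30.2%) and 26.5% (17.4 to 37.3%). With 16 and 83 reads in all, the intervals of the nicotine libraries overlapped for each of the 6 genes. Within saline the make-up did differ beyond counting error. Btg2 held 23.5% in saline replicate 1 and 12.8% in saline replicate 2, Dusp1 18.3% and 31.7%, and Ier5 4.50% and 9.44%, each with intervals that do not meet.

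**Figure D2:**
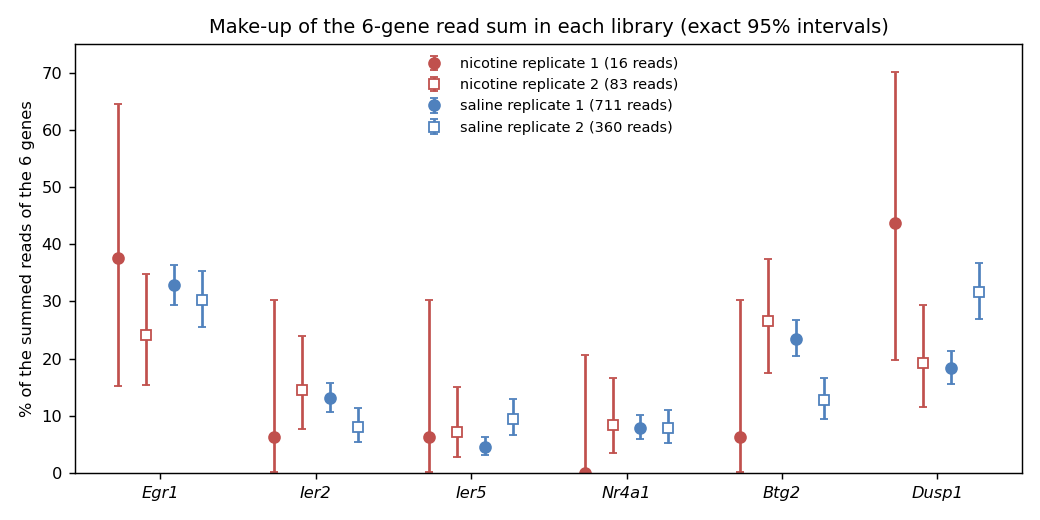
Share of each gene (x axis) in the summed reads of the 6 genes (y axis, %) for each library, with exact 95% Clopper-Pearson intervals; nicotine is red and saline blue, with filled circles for replicate 1 and open squares for replicate 2. The bars of nicotine replicate 1 rest on 16 reads and are the longest, and the saline libraries are apart for Btg2, Dusp1 and Ier5.

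Levels of different genes can be compared per length. In CPM per kb of the deposited gene length, the nicotine means were 1.56 ± 0.766 for Dusp1, 0.947 ± 0.584 for Ier2, 0.928 ± 0.224 for Egr1 and 0.840 ± 0.769 for Btg2 (SD, n = 2). Ier5 was at 0.282 ± 0.0482 and Nr4a1 at 0.244 ± 0.345. With saline, Dusp1 was at 6.92 ± 0.366, Ier2 at 6.05 ± 4.31, Btg2 at 5.85 ± 4.54, Egr1 at 5.78 ± 2.76, Nr4a1 at 2.58 ± 1.12 and Ier5 at 1.54 ± 0.128. The first 4 of each order did not differ beyond their spread, since Dusp1 led in nicotine replicate 1 and saline replicate 2, Btg2 in nicotine replicate 2 and Ier2 in saline replicate 1. Nr4a1 and Ier5 were the lowest pair in each of the 4 libraries. In nicotine replicate 1, 4 of the 6 (Ier2, Ier5, Btg2 and Nr4a1) were at 1 read or none, so their order there has no meaning.

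By reads per kb, each gene was also placed among all 8699 listed genes of its own library, which needs no scaling between libraries. Dusp1 stood at the 62.6th and 37.9th percentile in nicotine replicates 1 and 2, against 90.9 and 90.2 in saline replicates 1 and 2. Egr1 stood at 44.0 and 28.0 with nicotine, against 91.5 and 81.7 with saline. Btg2 was at 13.8 and 48.3 with nicotine, against 92.7 and 72.1 with saline. In saline replicate 1, Egr1, Ier2, Btg2 and Dusp1 all stood at 90.9 or higher, while 62.6 was the highest place of the 6 genes in a nicotine library. Ier2 lay at 24.8 and 47.8 with nicotine, against 92.7 and 75.8 with saline. Nr4a1 lay at 1.82 and 15.5 with nicotine, against 78.1 and 59.3 with saline. Ier5 lay at 11.2 and 7.74 with nicotine, against 49.4 and 55.8 with saline, the middle of the range. The 1.82 of Nr4a1 is the place shared by the 317 genes at 0 reads in nicotine replicate 1. The places of Ier2, Ier5 and Btg2 in that library rest on 1 read each.

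**Figure D3:**
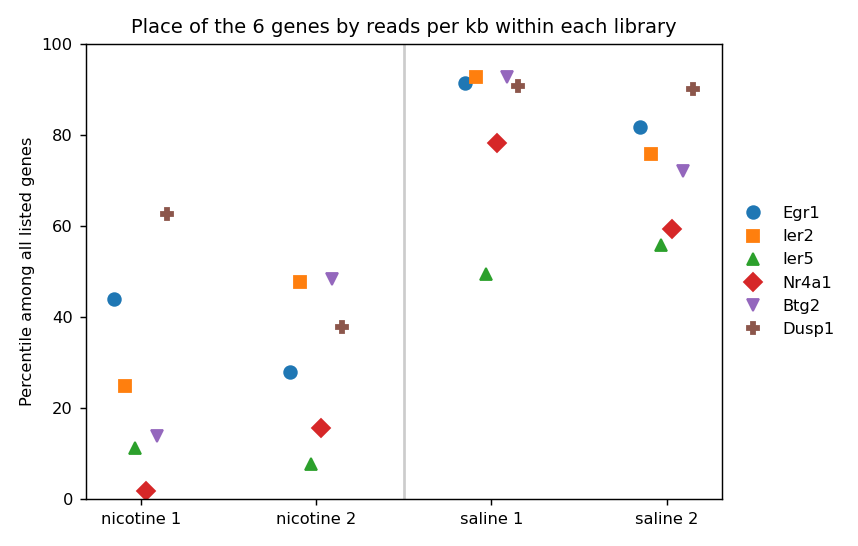
Percentile of each gene among the 8699 listed genes by reads per kb (y axis) in nicotine replicates 1 and 2 and saline replicates 1 and 2 (x axis), one marker per gene. Dusp1 in nicotine replicate 1, at 62.6, is the highest nicotine value, and Ier5 in saline replicate 1, at 49.4, the lowest saline value.

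Marker sums of connective tissue and vessels and of leukocytes were lower in both nicotine libraries, as were the 6 genes. Sums of epididymal markers overlapped between the groups, and those of sperm markers ran the other way. The part of cell types in the result was not tested. Of 22 markers of fibroblasts, smooth muscle and vessels 18 were listed. They summed to 670 and 1523 CPM in nicotine replicates 1 and 2, against 4596 and 2200 CPM in saline replicates 1 and 2, with Eng and Lum at 0 in nicotine replicate 1 and Lum at 0 in saline replicate 2. Of the 16 that were tested 2 fell and 0 rose (edgeR), where 0.931% of all genes fell and 8.27% rose, with a median log2 fold change of -1.53. Per 1000 reads of these markers the 6 genes had 19.4 and 9.40 reads with nicotine, against 23.0 and 25.8 with saline. The most abundant were the smooth muscle genes Myh11, with 144 and 611 CPM against 1300 and 799 CPM, and Acta2, with 61.7 and 332 CPM against 505 and 399 CPM. Neither passed the test (edgeR, adjusted p = 0.243 and 0.346). Without nicotine replicate 1 their log2 fold changes were -0.76 and -0.42, against -1.47 and -1.19 with all libraries. Saline replicate 1, the library richest in the 6 genes, was also the richest in these markers.

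Leukocyte markers were listed for 18 of 28 and summed to 130 and 111 CPM with nicotine, against 237 and 300 CPM with saline. Of the 18, 1 fell (0.931% of all genes) and 0 rose (8.27%), with a median log2 fold change of -1.17, and Cd68, Cd14 and Ctss were at 0 in nicotine replicate 1. The 6 genes had 100 and 129 reads per 1000 leukocyte marker reads with nicotine, against 447 and 189 with saline. The most abundant, Lyz2, lysozyme of macrophages and neutrophils, had 31.7 and 13.8 CPM with nicotine, against 79.2 and 51.7 CPM with saline, and Cd74, the invariant chain of antigen presentation, 21.9 and 27.4 CPM against 30.2 and 45.4 CPM. Lyz2 and Cd74 did not pass the test (edgeR, adjusted p = 0.107 and 0.488). In the leukocyte marker sum saline replicate 2, not replicate 1, was the richer library.

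Epididymal epithelium markers (18 of 26 listed, none at 0 in a library) had overlapping sums in the 2 groups. They summed to 1667 and 3883 CPM with nicotine, against 1129 and 3370 CPM with saline, sums to which Crisp1 gave the most. Of 17 tested 1 rose (8.27% of all genes) and 0 fell (0.931%), 13 had a log2 fold change below 0 and the median was -0.44. The most abundant were the secreted proteins Crisp1 and Clu, neither past the test (edgeR, adjusted p = 0.698 and 0.596). Crisp1 had 1042 and 2738 CPM with nicotine, against 653 and 1926 CPM with saline, and Clu 140 and 383 CPM against 125 and 792 CPM. Replicate 2 was the higher in both groups. Per 1000 reads of these markers the 6 genes had 7.79 and 3.69 reads with nicotine, against 93.8 and 16.8 with saline. Spermatid and sperm markers, of which 19 of 24 were listed and none was at 0, ran the other way, with 15491 and 10511 CPM with nicotine against 2836 and 2399 CPM with saline. Of these 19, 11 rose and 0 fell, where 8.27% of all genes rose. With libraries scaled by total reads, or by reads outside Lars2 and Gm42418, 0 of all tested genes were called higher by edgeR. Smcp then had a log2 fold change of 1.32 and 2.004, against 2.77 with TMM, and Odf1 1.24 and 1.97, against 2.75. Smcp, of the sperm mitochondrial capsule, and Odf1, of the outer dense fibres of the tail, led that list, at 4745 and 2703 CPM and at 4070 and 1999 CPM with nicotine, against 558 and 536 CPM and 448 and 453 CPM with saline. Per 1000 reads of the sperm markers the 6 genes had 0.838 and 1.36 reads with nicotine, against 37.3 and 23.6 with saline.

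**Figure D4:**
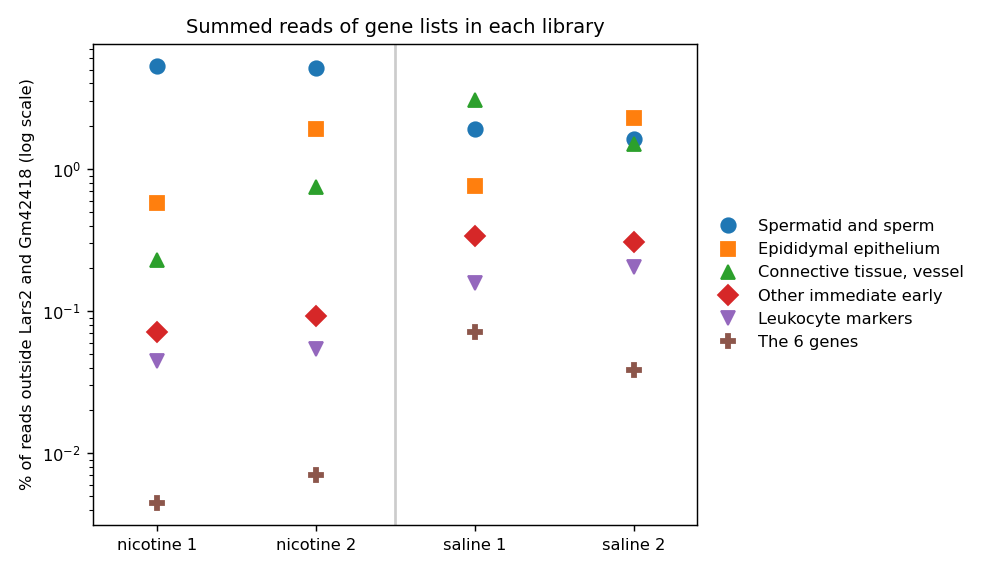
Summed reads of the 6 genes and of 5 gene lists as a percentage of reads outside Lars2 and Gm42418 (y axis, log scale) in nicotine replicates 1 and 2 and saline replicates 1 and 2 (x axis). The 6 genes held 0.00446% and 0.00706% with nicotine and 0.0709% and 0.0386% with saline, while the sperm markers held 5.32% and 5.18% with nicotine and 1.90% and 1.63% with saline.

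The rest of the immediate early response was read from a list of 62 further genes, of which 37 were listed and all 37 were tested. Among them Fos, Fosb and Ptgs2 were already known to be lower in these data. In this list 10 genes fell and 0 rose with nicotine (adjusted p under 0.05, edgeR), where 0.931% of all tested genes were called lower and 8.27% higher. Unadjusted, 20 of the 37 were lower and 0 higher at p under 0.05, against 7.12% and 16.6% of all tested genes. DESeq2 and limma-voom each called 8 lower and 0 higher, and called 0.943% and 0.549% of all genes lower. The median log2 fold change of the list was -1.41, against -0.14 for all tested genes and -2.44 for the 6 genes. It is unchanged with Fosb, which had no nicotine reads, set to its bound. In 27 of the 37 both nicotine libraries lay below both saline libraries, which held for 31.0% of all genes. With edgeR the count was 4 without saline replicate 1 and 3 without saline replicate 2, where 0.303% and 0.104% of all genes were called lower. Without nicotine replicate 1 it was 15 and without nicotine replicate 2 it was 13, against 3.29% and 9.67% of all genes. With libraries scaled by total reads the count was 1 (0.107% of all genes), and by reads outside Lars2 and Gm42418 it was 0 by edgeR (0% of all). With the latter scaling 27 of the 37 had an unadjusted p under 0.05 in either direction. So had 2523 of all 8375 tested genes.

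The 8 called genes with the largest changes are named. The AP-1 subunits Fosb and Fos were the lowest. Fosb had 0 reads in both nicotine libraries, against 262 and 47 in saline. With 3 reads over the group taken as the floor it was 55.4-fold lower. The exact 95% counting interval of saline over nicotine began at 44.8. With the same floor Fosb was 91.4-fold lower against saline replicate 1 alone, and 17.4-fold against saline replicate 2 alone. Fos had 1 and 9 reads with nicotine, against 272 and 127 with saline, a log2 fold change of -4.45 ± 0.67 (edgeR, adjusted p = 0.0329). Ptgs2, the inducible cyclooxygenase, had 0 and 10 reads with nicotine, against 152 and 125 with saline (log2 fold change -4.02 ± 0.70, edgeR adjusted p = 0.0329). These 3 were already known to be lower in these data when the list was made, so their calls are no independent evidence. With 1 library left out Fos lay between -5.10 and -3.90, and Ptgs2, where it had a value, between -4.19 and -3.58. By total reads Fos and Ptgs2 did not pass (edgeR, adjusted p = 0.0674 and 0.137). Nor did they by reads outside Lars2 and Gm42418 (adjusted p = 0.0810 for each). Klf2, a zinc finger factor of endothelium and lymphocytes, had 1 and 2 reads with nicotine, against 44 and 29 with saline, a saline over nicotine ratio of 13.1 (95% counting interval 4.31 to 65.0).

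Among the genes with values near those of the 6, Rhob, a small GTPase, had a log2 fold change of -2.78 ± 0.58, and Fosl2, another AP-1 subunit, of -2.78 ± 0.59 (edgeR, adjusted p = 0.0329 for each). Atf3, a stress-induced factor, had -2.68 ± 0.73 (adjusted p = 0.0456) and Zfp36, a protein that speeds decay of inflammatory messages, -2.47 ± 0.62 (adjusted p = 0.0375). DESeq2 did not call Atf3 (adjusted p = 0.0618), and limma-voom called neither Zfp36 (adjusted p = 0.0627) nor Klf2 (adjusted p = 0.0965). Without saline replicate 1 or 2 none of these 4 passed, nor did Klf2, with adjusted p between 0.188 and 0.477. Zfp36 then had -1.74 and -3.004, while Rhob had -2.87 and -2.75. Without nicotine replicate 2 Atf3 had -1.69 (adjusted p = 0.117) and Klf2 an adjusted p of 0.0869, so neither passed. Of the 6 most abundant genes of the list, Fos fell and the others did not pass. Thbs1, a matrix glycoprotein, had 18.7 and 10.5 CPM with nicotine, against 25.01 and 29.1 CPM with saline (log2 fold change -0.94 ± 0.50, adjusted p = 0.284). Mcl1, an anti-apoptotic protein, had -1.41 ± 0.49 (adjusted p = 0.1005), Sgk1, a kinase of salt and stress responses, -1.01 ± 0.63 (adjusted p = 0.367), and Btg1, a relative of Btg2, -0.76 ± 0.55 (adjusted p = 0.441). Without nicotine replicate 2 Sgk1 had -2.91 and Mcl1 -1.71 and both passed (adjusted p = 0.00385 and 0.0295), and without nicotine replicate 1 Sgk1 had -0.40 (adjusted p = 0.597). Thbs1 passed without nicotine replicate 1 at -1.35 (adjusted p = 0.0473) and had -0.47 without nicotine replicate 2 (adjusted p = 0.483).

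The relay that leads to these genes, and the partners of their products, were read from 6 further lists with 70 tested genes in all. Of these 2 rose and 0 fell (edgeR), where 0.931% of all tested genes fell and 8.27% rose. At an unadjusted p under 0.05, 5 of the 70 were lower and 6 higher, and 7.12% and 16.6% of all genes were. DESeq2 called 3 higher and 0 lower (10.3% of all genes were higher), and limma-voom 2 and 0 (9.15% of all). Their median log2 fold change was -0.17, against -0.14 for all genes. Among 32 members of the MAP kinase to SRF and CREB relay, 1 rose and the median was -0.10. That gene was Crem, a CREB relative with an activating form abundant in spermatids, with 68 and 151 reads with nicotine, against 35 and 32 with saline, or 55.2 and 26.0 CPM against 5.21 and 5.04 CPM. It rose by 2.95 ± 0.55 (adjusted p = 0.0329). In 15 members of the BTG and TOB family and the CCR4-NOT complex, through which BTG2 acts, 0 were called and the median was 0.05. At an unadjusted p under 0.05 by edgeR, 1 was higher (16.6% of all genes) and 0 lower (7.12%). DESeq2 and limma-voom also called 0.

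Among 8 other dual specificity phosphatases 1 rose. Dusp15 had 60 and 199 reads with nicotine, against 68 and 55 with saline, or 48.7 and 34.3 CPM against 10.1 and 8.66 CPM, a log2 fold change of 2.13 ± 0.49 (adjusted p = 0.0332), opposite in sign to Dusp1. In 12 genes of HSF1, heat shock proteins and the phosphatase PP2A, tied to IER5, 0 were called and the median was -0.67. In 8 of the 12 both nicotine libraries lay below both saline libraries in CPM, and in 1 above. The first arrangement held for 31.0% of all tested genes. There 3 were lower and 0 higher at an unadjusted p under 0.05 (7.12% and 16.6% of all genes), and DESeq2 and limma-voom called 0. The EGR1 corepressor Nab1 and the NR4A1 partners Rxra and Rxrb had log2 fold changes between -0.54 and 0.02, none past the test. Crem and Dusp15 did not pass without saline replicate 1 (2.96 and 2.22, adjusted p = 0.230 and 0.353) or without saline replicate 2 (2.91 and 1.997, adjusted p = 0.315 and 0.439), where 0.152% and 0% of all genes were called higher. By total reads they had 1.46 and 0.79 (adjusted p = 0.482 and 0.650), and by reads outside Lars2 and Gm42418 2.18 and 1.41 (adjusted p = 0.0810 and 0.108).

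**Figure D5:**
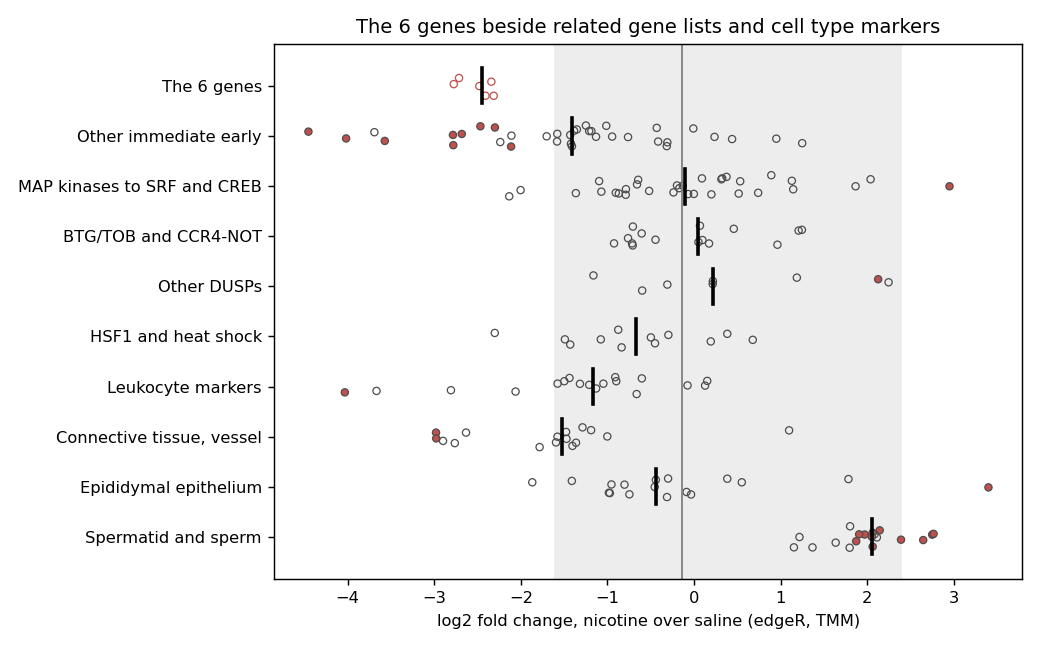
Log2 fold change of nicotine over saline (x axis) for the tested genes of each list (rows); points are genes, filled where called in lists other than the 6 genes, black bars list medians, the grey line the median of all tested genes and the grey band their 5th to 95th percentile (-1.60 to 2.40). Fosb is not drawn. The 6 genes lie left of the band with the called genes of the immediate early list, and the sperm markers have their median at 2.05.

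Genes whose pattern over the 4 libraries was most like that of the 6 were sought by distance. Each gene's log2 CPM was centred on its own mean, and the Euclidean distance to the mean profile of the 6 genes was taken. That profile was -1.52 and -0.91 in nicotine replicates 1 and 2, and 1.63 and 0.79 in saline replicates 1 and 2. The nearest of the other tested genes were Zfp36 at a distance of 0.311, Crkl, a signalling adaptor, at 0.321, and Smo, the hedgehog signal transducer, at 0.403. Then came Tubgcp6 of the gamma-tubulin complex (0.479), the creatine kinase Ckb (0.487), the paraspeckle RNA Neat1 (0.505), the collagen Col23a1 (0.512) and the nucleolar protein Nol6 (0.542). In nicotine replicate 1 Zfp36 had 3 reads, and Crkl, Smo, Tubgcp6, Col23a1 and Nol6 had 1 each, at or below the floor. Ckb had 8 and Neat1 21 there. The median tested gene lay at 2.48. The 6 genes themselves lay at 0.580 (Ier2), 0.763 (Egr1), 0.842 (Ier5), 1.06 (Btg2), 1.15 (Nr4a1) and 1.26 (Dusp1). By this distance they ranked from 13 (Ier2) to 395 (Dusp1) among the 8375 tested genes. The 8 genes named here were nearer to that mean than any of the 6, but were picked as the nearest.

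With far more candidates outside the set than within, each of the 6, taken singly, had a gene outside it as its closest. These were Tcn2, a vitamin B12 carrier, for Egr1 (distance 0.372), the cyclin-dependent kinase inhibitor Cdkn1b for Nr4a1 (0.336), and the matrix protein Spon1 for Ier2 (0.244). For Ier5 it was the kinase Map3k6 (0.116), for Dusp1 the endocytic receptor Lrp1 (0.226) and for Btg2 the secreted kinase Pkdcc (0.264). In nicotine replicate 1 Map3k6 had 2 reads, Tcn2 and Spon1 1 each, and Cdkn1b and Pkdcc 0, all below the floor. Lrp1 had far more reads than Dusp1, with 48 and 132 with nicotine, against 903 and 687 with saline. With 4 libraries such distances only describe likeness.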

How the data were processed

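RNA was sequenced from sperm of mice given nicotine or saline, 2 libraries per group. For each library the authors deposited reads per gene, without normalisation, and RPKM, with a gene length. The submitters' processing notes name CASAVA, TopHat and mm8, with neither version nor role. The sources used here give no counter, annotation, strand setting or gene filter. The deposited read column was treated as estimated counts because its last line, which names no gene, holds a fraction (the RPKM factor, not a read number, left out). Rounding changed no gene. The deposited RPKM values equalled reads over length and total, and served as an alternative. A table of gene names gave symbols for 8688 of the 8699 genes.

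The main test was edgeR 4.0.16 (R 4.3.3) with TMM, filterByExpr (minimum count 10) and group only. DESeq2 1.42.0 and limma-voom (limma 3.58.1) were alternatives, beside other scalings, filters, a replicate block and leaving out each library. Benjamini-Hochberg adjustment covered all tested genes. The fit was tested on simulated data. Log2 CPM used a prior count of 2. Shares have exact Clopper-Pearson intervals. Named genes were all 6 genes, up to 8 called genes per related list by size of change, the 6 most abundant immediate early and 2 most abundant genes per marker list, and those nearest in profile. The 6 genes and all lists were chosen with earlier results of these data known.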

Additional observations from a re-analysis of the deposited data

How the results depend on the processing

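All 6 genes had a log2 fold change below 0 under each of the 12 alternatives that gave a value (75 of 75 values, the reported ones included). Ier2 and Nr4a1 had none at a minimum count of 30, nor Nr4a1 without nicotine replicate 2, where it had 0 reads. The genes were chosen for fewer nicotine reads, so these signs were largely set in advance and are no independent evidence. Of 69 alternative values 55 moved by less than 1 SD of the replicates. Scaling by total reads moved the median of all genes to -1.28 and gave Egr1 -3.97, Ier2 -3.51, Ier5 -3.46 and Dusp1 -3.63. Nr4a1 at -3.84 and Btg2 at -3.53 shifted by a similar amount, which lay within their wider replicate SD (1.09 and 1.24). Scaling by reads outside Lars2 and Gm42418 moved the median of all genes to -0.77 and gave Egr1 -3.36, Ier5 -2.92 and Dusp1 -2.98. Ier2 was then at -2.99, Nr4a1 at -3.33 and Btg2 at -3.06, each within its wider SD. Relative to the median of all genes the 6 genes' median was -2.30 and -2.26 by these scalings, against -2.31 with TMM. A change of scaling moves all genes by a similar amount, so these values could hardly differ and nothing is read from them. Limma-voom gave Egr1 -2.70, Ier2 -2.08, Ier5 -2.16, Nr4a1 -3.01, Btg2 -2.06 and Dusp1 -2.55, of which only Ier5 moved by more than 1 SD. With 1 library left out, Egr1 ranged from -3.14 to -2.12, Ier2 from -3.38 to -1.47 and Ier5 from -2.53 to -2.25. Btg2 ranged from -4.18 to -1.43, Dusp1 from -2.73 to -1.64 and Nr4a1, where it had a value, from -3.24 to -2.32.

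Called genes numbered 693 higher and 78 lower. These were 0 and 9 by total reads, 0 and 0 by reads outside the pair (edgeR; 2523 at an unadjusted p under 0.05), and 46 lower by limma-voom. Leaving out 1 library gave 0 to 1515 higher and 9 to 824 lower. In the immediate early list 10 were lower, with 1 by total reads, 0 by reads outside the pair and 3 to 15 with 1 library left out, where 0 to 1 were higher. Of the pathway and partner genes 2 were higher, against 0 by either of these scalings and 0 to 9 with 1 library left out. Of them 0 were lower, against 2 at a minimum count of 30 and 0 to 3 with 1 library left out. Per1, not past the test, reversed to -0.77 by total reads and -0.25 without nicotine replicate 1, and was 1.74 and past the test (adjusted p = 0.00217, edgeR) without nicotine replicate 2. Crisp1 reversed to -0.34 by total reads, -0.034 by reads outside the pair, -0.25 without nicotine replicate 2 and -0.047 without saline replicate 1, up to 1.52 without saline replicate 2. Clu reversed to 1.05 without saline replicate 2 and was -1.66 without nicotine replicate 2 (adjusted p = 0.0449, edgeR). In the order of nicotine levels per length, 2 of 6 genes kept their place in deposited RPKM and 4 of 6 by reads outside the pair. The cause was not tested.

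The replicate numbers name libraries and the labels tie no pair. With the replicate number as a block, 1078 genes were higher and 279 lower, with 5 of the 6 genes lower in place of 2, 16 lower in the immediate early list, and 5 higher and 2 lower among pathway and partner genes. Mcl1 then passed (adjusted p = 0.0456, edgeR). Deviations of same-numbered libraries from their group means correlated at 0.173 over 8375 genes. With 1 library left out, the lone library of its group is assumed to vary like the other group. The reads in nicotine replicate 1 limit all values there.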

Other observations

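With TMM scaling, not every immediate early gene was low with nicotine. Of the 37 tested beside the 6 genes, 4 had a log2 fold change above 0: Klf4, Zfp36l1, Per1 and Arc. Klf4, Zfp36l1 and Arc are named here after their values were seen. Arc, a synaptic gene, had 8 and 47 reads with nicotine, against 25 and 16 with saline, or 6.49 and 8.11 CPM against 3.72 and 2.52 CPM. With TMM both nicotine libraries lay above both saline libraries, but its log2 fold change of 1.25 ± 0.57 did not pass (adjusted p = 0.212, edgeR). Relative to reads outside Lars2 and Gm42418, Arc in nicotine replicate 1 lay below saline replicate 1, so the groups overlapped. Zfp36l1, a relative of Zfp36, had 14.6 and 10.2 CPM with nicotine, against 9.53 and 8.19 CPM with saline (0.44 ± 0.49, edgeR adjusted p = 0.633). Relative to reads outside that pair, Zfp36l1 was instead lower in both nicotine libraries than in both saline libraries. Per1, a clock gene, had 54.4 and 14.1 CPM with nicotine, against 17.7 and 16.4 CPM with saline (0.95 ± 0.62, adjusted p = 0.391), so its mean rests on nicotine replicate 1. Klf4 had 12.2 and 4.31 CPM with nicotine, against 9.98 and 2.52 CPM with saline (0.24 ± 0.76, adjusted p = 0.885).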
